A study of Mus musculus with 19 samples.

Results

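The reads described here are those of the 5.8S ribosomal RNA gene n-R5-8s1 in mouse sperm small RNA, taken in the sense direction with at most 1 mismatch. The deposited libraries held 1172 distinct sequences and 563616 reads that met this rule, out of 711662713 reads in 19 libraries. n-R5-8s1 (ENSMUSG00000065922.1) is a 148-nt gene of biotype rRNA on the minus strand of GRCm38 chromosome 18, from 73533403 to 73533550. No other annotated gene overlaps it. It was the only 5.8S gene in the annotation, and it turned out to differ from the 5.8S rRNA that the sperm libraries contain. The molecule was therefore also assembled from the reads themselves, and 61460 distinct sequences and 16374671 reads matched that assembly under the same limit of 1 mismatch. The choice of the assembled molecule as a second reference was made after seeing the data.

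Sperm, passed through a cell strainer and treated with a buffer that lyses somatic cells, came from the cauda epididymis of wild-type males that received daily oral gavage for 4 weeks from 8 weeks of age. Control males received the corn oil vehicle, and exposed males received 10 mg/kg dicyclohexyl phthalate (DCHP), a plasticizer, in that vehicle. RNA of 15-50 nt was cut from a gel and made into libraries with the NEBNext ligation kit. Traditional libraries were made directly, and PANDORA-seq libraries were made after treatment with T4PNK, an enzyme that repairs phosphates at RNA ends, and AlkB, which removes some methyl groups from bases. The groups were control PANDORA-seq (n = 4), DCHP PANDORA-seq (n = 5), control traditional (n = 5) and DCHP traditional (n = 5). The groups come from the sample titles, because the treatment label names DCHP gavage for all 19 libraries, controls included. The study describes the libraries as replicate mice, but the labels do not say which libraries share a male.

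5.8S rRNA is cut from the same precursor as 18S and 28S rRNA, and it is held in the large ribosomal subunit by base pairing with 28S rRNA. Its 5′ and 3′ ends are set when the internal transcribed spacers of that precursor are removed. Mature sperm make little protein and carry many short pieces of rRNA, and a ligation library records only those pieces whose ends can be joined to adaptors and whose bases can be read through by reverse transcriptase.

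Libraries held between 21588335 and 56506344 reads of 15 to 45 nt. Reads of the sperm microRNA Mir34c averaged 116 and 227 per 1000000 total reads in control and DCHP traditional libraries, but 0.641 and 1.88 in PANDORA-seq libraries. The 5 microRNAs of the epididymal epithelium list (the Mir200 family) summed to 829 (control) and 1906 (DCHP) per 1000000 in traditional libraries, and the 4 smooth muscle microRNAs, led by Mir143, to 3380 and 3671. In PANDORA-seq the same sums were 4.48 and 14.3 (epididymal) and 7.67 and 28.7 (smooth muscle). Of 3 blood microRNAs, Mir451a and Mir144 were found in the annotation and summed to 18.9 and 6.27 in traditional libraries. The part of epididymal or muscle RNA in the 5.8S values was not tested, and in such bulk samples fewer cells of a type and less RNA per cell cannot be told apart.

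The assembled 5.8S rRNA is shown first, because every position below refers to it. Its bases are counted from 1 at the 5′ end, and capitals mark the bases that differ from n-R5-8s1 or have no partner in it.
assembled 5.8S rRNA: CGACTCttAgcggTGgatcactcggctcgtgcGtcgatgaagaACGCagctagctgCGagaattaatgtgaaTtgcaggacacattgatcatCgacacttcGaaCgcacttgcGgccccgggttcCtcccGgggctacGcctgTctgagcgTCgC
Its 155 bases lie between ends set from where reads start and stop, inside a contig of 175 bases. Some reads ran past each end, and whether these are the ends of the mature molecule was not tested. At the least supported step of the assembly, the base added was backed by 99.3% of the reads. Of the 144 bases that could be aligned with n-R5-8s1, 127 were identical (88.2%). The 17 substitutions, with 11 assembled bases and 4 gene bases left without a partner, are spread along the molecule and dense at both ends. No stretch of 20 bases of the assembled molecule, on either strand, was found in any of the 141767 annotated transcripts searched.

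These differences decide which fragments the gene can collect. Counting windows of at least 15 nt with at most 1 mismatch, n-R5-8s1 reached bases 15 to 44, 58 to 101 and 106 to 130 of the assembled molecule. That is 99 of 155 bases (63.9%), and neither end is among them. The longest fragment it could match was 34 nt, from base 59 to base 92. Of the reads that the gene did collect, between 99.7% and 100% in each library also matched the assembled molecule. They made up between 0.993% and 7.43% of all reads on that molecule.

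Nearly all reads of n-R5-8s1 carried a mismatch. Between 93.6% and 99.5% of them per library matched with 1 mismatch rather than exactly. Substitutions are written as the gene's base, its position from the gene's 5′ end and the read's base. T87C, a difference between n-R5-8s1 and the assembled molecule, was in 92.6% of the gene's reads in PANDORA-seq and 74.1% in traditional libraries. C67T followed in traditional libraries at 9.49%, against 0.586% in PANDORA-seq. C31G and A108G were at most 6.74% and 4.36% of the reads, and both are also bases of the assembled molecule. Exact matches were 0.904% of the gene's reads in PANDORA-seq and 3.99% in traditional libraries.

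**Figure D1:**
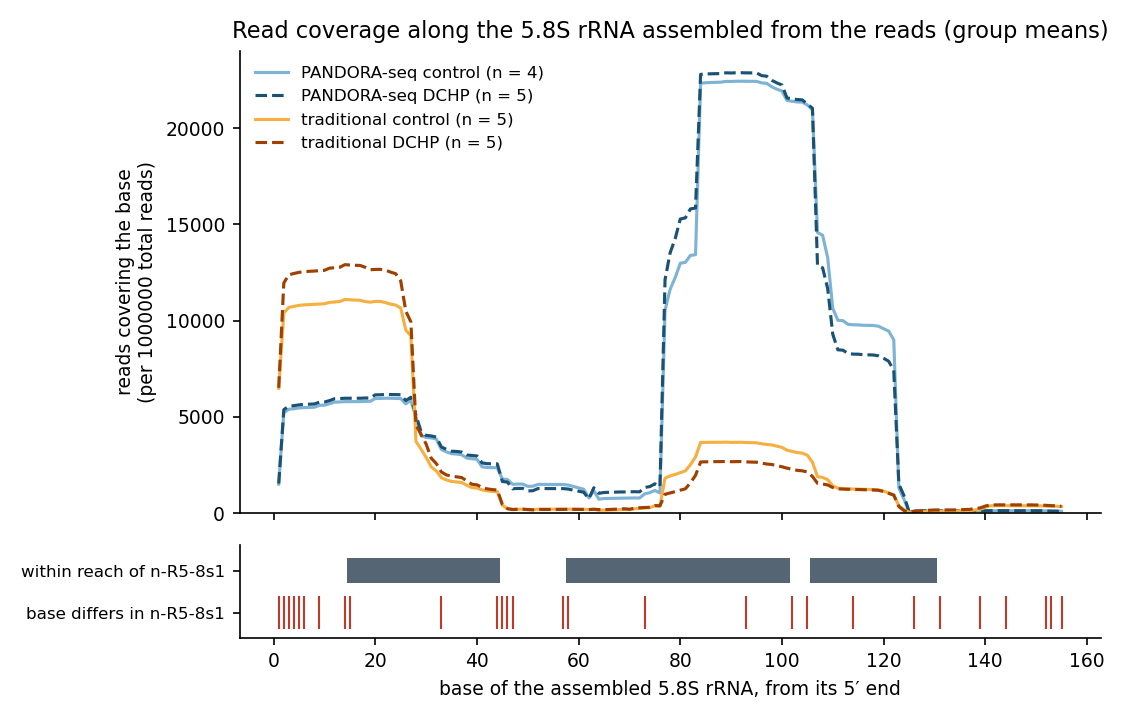
Mean number of reads covering each base of the assembled 5.8S rRNA, per 1000000 total reads, in the 4 groups, against the base counted from the 5′ end. The lower strip marks the stretches that n-R5-8s1 can match with at most 1 mismatch and the bases that differ from it. Traditional libraries peak over the first 27 bases and PANDORA-seq libraries between bases 77 and 122, and the gene reaches neither end of the molecule.

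All reads of n-R5-8s1 were internal fragments. A 5′ fragment was defined as a read that starts at bases 1 to 3, a 3′ fragment as a read that ends within the last 3 bases, and a read that runs past either end was kept apart. No library had a 5′ or a 3′ fragment of n-R5-8s1. A count of 0 among 563616 reads allows a share of up to 0.000532%, from counting error alone, and the sequence differences above keep the gene from matching either end. The most used start of the gene's reads was its base 71, which is base 77 of the assembled molecule. That start took 85.9% of the reads in PANDORA-seq and 38% in traditional libraries. The most used end, base 94 of the gene, took 46.1% and 21.5%. The 3 most abundant sequences share this start and differ only at the 3′ end, and they are printed with the mismatch T87C in capitals.
bases 71 to 94 of n-R5-8s1: aggacacattgatcatCgacactt
bases 71 to 91 of n-R5-8s1: aggacacattgatcatCgaca
bases 71 to 92 of n-R5-8s1: aggacacattgatcatCgacac
The 24-nt sequence averaged 408 ± 132 reads per 1000000 (SD) in control PANDORA-seq, 562 ± 473 in DCHP PANDORA-seq, 91.6 ± 54.7 in control traditional and 32 ± 20 in DCHP traditional libraries. The 3 sequences were picked for their mean level over the 4 groups, so their differences between methods are described without a test. In edgeR's quasi-likelihood fit the 24-nt sequence was higher in PANDORA-seq by 2.15 (log2) in control sperm and by 4.13 in exposed sperm. The 21-nt sequence was higher by 3.99 and 4.78, and the 22-nt sequence by 2.37 and 2.98. None of the 3 differed between DCHP and control libraries of either method (edgeR adjusted p between 0.656 and 0.999).

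The level of n-R5-8s1 varied more among exposed PANDORA-seq libraries than in any other group. In control PANDORA-seq it was 674, 1249, 1199 and 799 reads per 1000000 total reads (replicates 1 to 4). In DCHP PANDORA-seq it was 2402, 413, 2277, 1004 and 345 (replicates 1 to 5). Exposed replicates 1 and 3 lay above all controls and replicates 2 and 5 below all of them, so the groups overlapped fully, and the exposed group spanned 6.97-fold between its libraries. In control traditional libraries the level was 583, 335, 528, 483 and 298, and in DCHP traditional libraries it was 390, 357, 583, 364 and 209. These groups also overlapped, and the spans were 1.95-fold and 2.79-fold. The coefficient of variation was 77.2% in exposed PANDORA-seq libraries, against 29.2%, 27.7% and 35.1% in control PANDORA-seq, control traditional and DCHP traditional libraries.

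Exposure did not move the level of n-R5-8s1 beyond this spread. The mean was 1288 ± 994 in exposed and 981 ± 287 in control PANDORA-seq libraries, a 1.31-fold difference (adjusted p = 0.532, two-sided exact permutation test). In traditional libraries it was 381 ± 134 and 445 ± 123, a ratio of 0.855 (adjusted p = 0.532, exact permutation test). The exposure effect, on the log2 scale, differed between the methods by 0.62 (p = 0.39, exact permutation of exposure within each method). Exposed and control libraries of this size could not have given a p below 0.00794.

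Between methods, the level of n-R5-8s1 in control sperm was 2.2-fold higher in PANDORA-seq, with no overlap between the groups (adjusted p = 0.0317, exact permutation test). Leaving out any of the 9 libraries raised the adjusted p to between 0.0714 and 0.114, while the ratio stayed between 2 and 2.43. In each case p was the smallest that the group sizes allow, and the call was lost in the adjustment. Without a PANDORA-seq library no p below 0.0179 is possible, and without a traditional one none below 0.0286. In exposed sperm the ratio was 3.38 with overlapping groups (adjusted p = 0.159, exact permutation test), and it was 4 without PANDORA-seq replicate 5 (adjusted p = 0.0317, exact permutation test). Per microRNA hairpin read, a scale the study also used, the ratios were 21.1 in control and 44 in exposed sperm, and per hairpin read of 20 to 24 nt they were 177 and 321 (adjusted p = 0.0159 for all 4, exact permutation test). With exact matches only, which left few reads and only short runs free of differences, the direction was the opposite. The ratios were 0.602 in control and 0.684 in exposed sperm (adjusted p = 0.365 for both, exact permutation test). It was also the opposite relative to 18S rRNA. There were 4.1 ± 0.557 reads of n-R5-8s1 per 1000 reads of 18S rRNA in control PANDORA-seq (n = 4) and 12.7 ± 1.66 in control traditional libraries (n = 5). In exposed sperm these were 5.34 ± 3.69 and 12.5 ± 2.59 (n = 5 each, adjusted p = 0.0317 for both comparisons, exact permutation test). With a traditional control left out, the control difference had an adjusted p of 0.0571, and with traditional DCHP replicate 1, 2, 3 or 4 left out the exposed one had 0.0635 (exact permutation tests). The exposed call was also lost with reads of at least 18 nt (ratio 0.561, adjusted p = 0.159, exact permutation test).

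The reads of n-R5-8s1 were also shorter in traditional libraries. Their mean length was 22.2 ± 0.184 nt in control and 22.1 ± 0.285 nt in exposed PANDORA-seq libraries, against 20.8 ± 0.54 and 20 ± 0.346 nt in traditional libraries. The difference between methods was 1.43 nt in control and 2.06 nt in exposed sperm (adjusted p = 0.0212 for both, exact permutation test). With reads of at least 18 nt the control difference was 0.584 nt (adjusted p = 0.0635, exact permutation test). With exact matches only, the 2 differences were 0.0447 nt (adjusted p = 0.913) and 0.213 nt (adjusted p = 0.37, exact permutation tests). Exact matches cannot decide the length difference. The longest run without a difference from the gene lies between bases 73 and 93 of the assembled molecule, so an exact match to both is short. Within traditional libraries the exposed mean was below the control mean, with a difference of -0.735 nt (adjusted p = 0.0212, exact permutation test). The individual values overlapped, at 20.3, 20.5, 21.1, 21.6 and 20.5 nt in controls and 20.3, 20.1, 20.1, 19.4 and 20.3 nt in exposed libraries. This call was lost without exposed replicate 2 or 3 (adjusted p = 0.0529) or 4 (adjusted p = 0.0952), and with reads under 18 nt left out the difference was -0.428 nt with no call. With exact matches only, which are too short to decide it, the difference was -0.431 nt (adjusted p = 0.37, exact permutation test). On the assembled molecule the difference was -0.0971 nt (adjusted p = 0.968, exact permutation test).

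**Figure D2:**
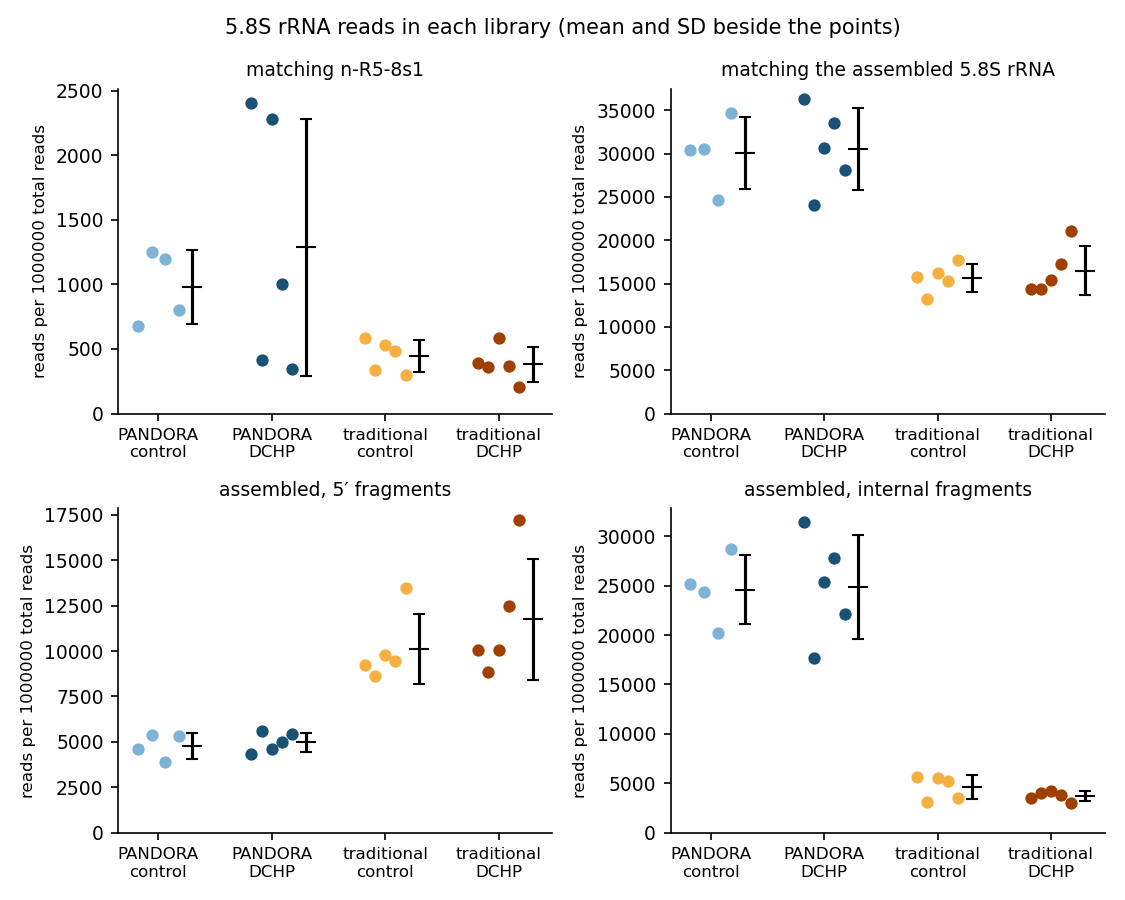
Reads per 1000000 total reads in each library (points) for n-R5-8s1, the assembled 5.8S rRNA, and its 5′ and internal fragments, with the group mean and SD as bars beside the points. The exposed PANDORA-seq libraries run from 345 to 2402 on n-R5-8s1 and only from 24065 to 36296 on the assembled molecule. Per total read, traditional libraries are higher in 5′ fragments and PANDORA-seq libraries in internal fragments, while per microRNA read 5′ fragments too were higher in PANDORA-seq.

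On the assembled molecule the same libraries were far more alike. 5.8S rRNA took 30416, 30572, 24672 and 34727 reads per 1000000 in control PANDORA-seq and 36296, 24065, 30646, 33562 and 28107 in DCHP PANDORA-seq. It took 15728, 13222, 16196, 15338 and 17772 in control traditional and 14315, 14354, 15411, 17248 and 21015 in DCHP traditional libraries. Coefficients of variation were between 10.5% and 17%, and no group spanned more than 1.51-fold. Exposed and control means differed by 1.01-fold in PANDORA-seq (adjusted p = 0.937) and 1.05-fold in traditional libraries (adjusted p = 0.836, exact permutation tests). The exposure effect differed between methods by -0.0526 on the log2 scale (p = 0.783, exact permutation of exposure within each method).

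Per total read, 5.8S rRNA was higher in PANDORA-seq than in traditional libraries, by a factor of 1.92 in control and 1.85 in exposed sperm, without overlap (adjusted p = 0.0181 for both, exact permutation test), whereas per 18S read it was lower. The corresponding ratios were 6.71 and 7.54 for 18S rRNA and 8.47 and 7.41 for 5S rRNA (adjusted p = 0.0254 for each, exact permutation test). The mitochondrial 16S gene mt-Rnr2 was lower in PANDORA-seq, with ratios of 0.298 and 0.341. The matching rules differ, since 18S reads were counted with at most 1 mismatch, like 5.8S reads, and 5S and mt-Rnr2 reads as exact matches. There were 132 ± 33.9 reads of 5.8S rRNA per 1000 reads of 18S rRNA in control PANDORA-seq (n = 4) against 472 ± 152 in control traditional libraries (n = 5). In exposed sperm the values were 137 ± 23.5 and 573 ± 183 (n = 5 each, adjusted p = 0.0159 for both comparisons, exact permutation test).

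The methods differed in the class of fragment. 5′ fragments made up 15.1%, 17.5%, 15.7% and 15.3% of 5.8S reads in control PANDORA-seq and 12%, 23.2%, 15%, 14.9% and 19.3% in DCHP PANDORA-seq. In traditional libraries they made up 58.7%, 65.1%, 60.4%, 61.5% and 75.9% (control) and 70.4%, 61.7%, 65.3%, 72.4% and 81.8% (DCHP). The highest PANDORA-seq library thus lay far below the lowest traditional one. The mean shares were 15.9% and 64.3% in control sperm and 16.9% and 70.3% in exposed sperm (adjusted p = 0.019 for both, exact permutation test), a measure that no choice of total can change. The number of internal reads per 5′ read, a measure added after the data were seen, largely restates these shares. It was 5.15 ± 0.419 in control PANDORA-seq (n = 4) and 0.471 ± 0.151 in control traditional libraries (n = 5), a 10.9-fold difference. In exposed sperm it was 5.11 ± 1.55 against 0.34 ± 0.11, a 15-fold difference (adjusted p = 0.0238 for both, exact permutation test).

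Per total read, internal fragments averaged 24595 ± 3498 in control and 24879 ± 5259 in exposed PANDORA-seq libraries. In traditional libraries they averaged 4609 ± 1188 and 3703 ± 473, so that the ratio of PANDORA-seq to traditional was 5.34 in control and 6.72 in exposed sperm (adjusted p = 0.0181 for both, exact permutation test). 5′ fragments went the other way per total read, at 4791 ± 705 and 4991 ± 527 in PANDORA-seq against 10106 ± 1934 and 11738 ± 3323 in traditional libraries, but per microRNA hairpin read they too were higher in PANDORA-seq. The ratios per total read were 0.474 and 0.425 (adjusted p = 0.0181 for both, exact permutation test), those per microRNA hairpin read were 4.53 and 5.48, and those per hairpin read of 20 to 24 nt were 41 and 37.3. In the control comparisons the call on each of these measures was lost when any of the 5 traditional controls was left out. With 4 libraries against 4, p was 0.0286, the smallest possible (exact permutation test). The adjustment raised it to between 0.0571 and 0.0653. The ratios stayed between 1.82 and 2.04 for all reads, 0.455 and 0.517 for 5′ and 4.94 and 5.65 for internal fragments. The control calls on the 5′ share, the mean length and the 18S ratio were lost in the same way (adjusted p = 0.0571).

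Exposure changed none of the classes beyond the spread of the libraries. Exposed over control, the ratio per total read was 1.04 in PANDORA-seq and 1.16 in traditional libraries for 5′ fragments, 1.01 and 0.803 for internal fragments and 0.978 and 1.09 for 3′ fragments (adjusted p between 0.268 and 0.937, exact permutation tests). The share of 5′ fragments was higher by 0.951 percentage points in exposed PANDORA-seq (adjusted p = 0.968) and by 6.03 points in exposed traditional libraries (adjusted p = 0.395, exact permutation tests), and both pairs of groups overlapped.

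In exposed sperm, deviations from the group means were weakly correlated between PANDORA-seq and traditional libraries with the same replicate number (r between 0.175 and 0.342). The level on the assembled molecule did not follow this throughout. Replicates 2 and 4 deviated in the same direction in both methods, and replicates 1, 3 and 5 in opposite directions. With the replicate number as a block, the exact sign-flip test of the 5 pairs gave p = 0.0625, the smallest it can give, for each level, share, mean length and 18S ratio called between the methods in exposed sperm (adjusted p between 0.125 and 0.214 for the assembled molecule and between 0.125 and 0.25 for n-R5-8s1). For these measures the direction was the same in all 5 pairs. Single start and end bases and the other measures added later were not tested with the block.

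3′ fragments were rare. They numbered 177, 103, 41.1 and 58 per 1000000 in control PANDORA-seq and 66.2, 125, 57.4, 91.1 and 125 in DCHP PANDORA-seq. In traditional libraries they numbered 343, 659, 325, 190 and 110 (control) and 143, 815, 393, 157 and 266 (DCHP). The ratio between methods was 0.292 in control sperm, with overlapping groups (adjusted p = 0.0952), and 0.262 in exposed sperm (adjusted p = 0.0181, exact permutation tests). The second call was lost without any one of the 5 exposed PANDORA-seq libraries (ratios of 0.239 to 0.287, adjusted p between 0.0952 and 0.111). It was also lost with reads under 18 nt left out, when the ratio was 0.481, and per microRNA read the direction was the opposite, with 3.16 in control and 2.83 in exposed sperm (33.3 and 18.9 per hairpin read of 20 to 24 nt). Reads that start before base 1 averaged 604 ± 112 and 562 ± 91.3 in PANDORA-seq and 579 ± 135 and 641 ± 117 in traditional libraries, and no difference between methods passed the test (adjusted p = 0.884 in control and 0.463 in exposed sperm, exact permutation tests).

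A few bases took a large part of the read starts and ends. In traditional libraries 36.7% of 5.8S reads started at base 1 and 29.1% at base 2, and 33.9% ended at base 27. In PANDORA-seq 33.4% started at base 77 and 26.1% at base 84, with 12.5% at base 2, and 24% ended at base 106 and 22.4% at base 122. Starts at bases 76 to 85 together held 70.7% ± 2.25 of 5.8S reads in control PANDORA-seq (n = 4) and 69.7% ± 4.66 in exposed PANDORA-seq (n = 5), against 21.4% ± 6.7 and 14.7% ± 4.74 in traditional libraries. These bases were picked for being the most used in either method, and the window for the PANDORA-seq starts, so the differences between methods at them are described without a test.

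**Figure D3:**
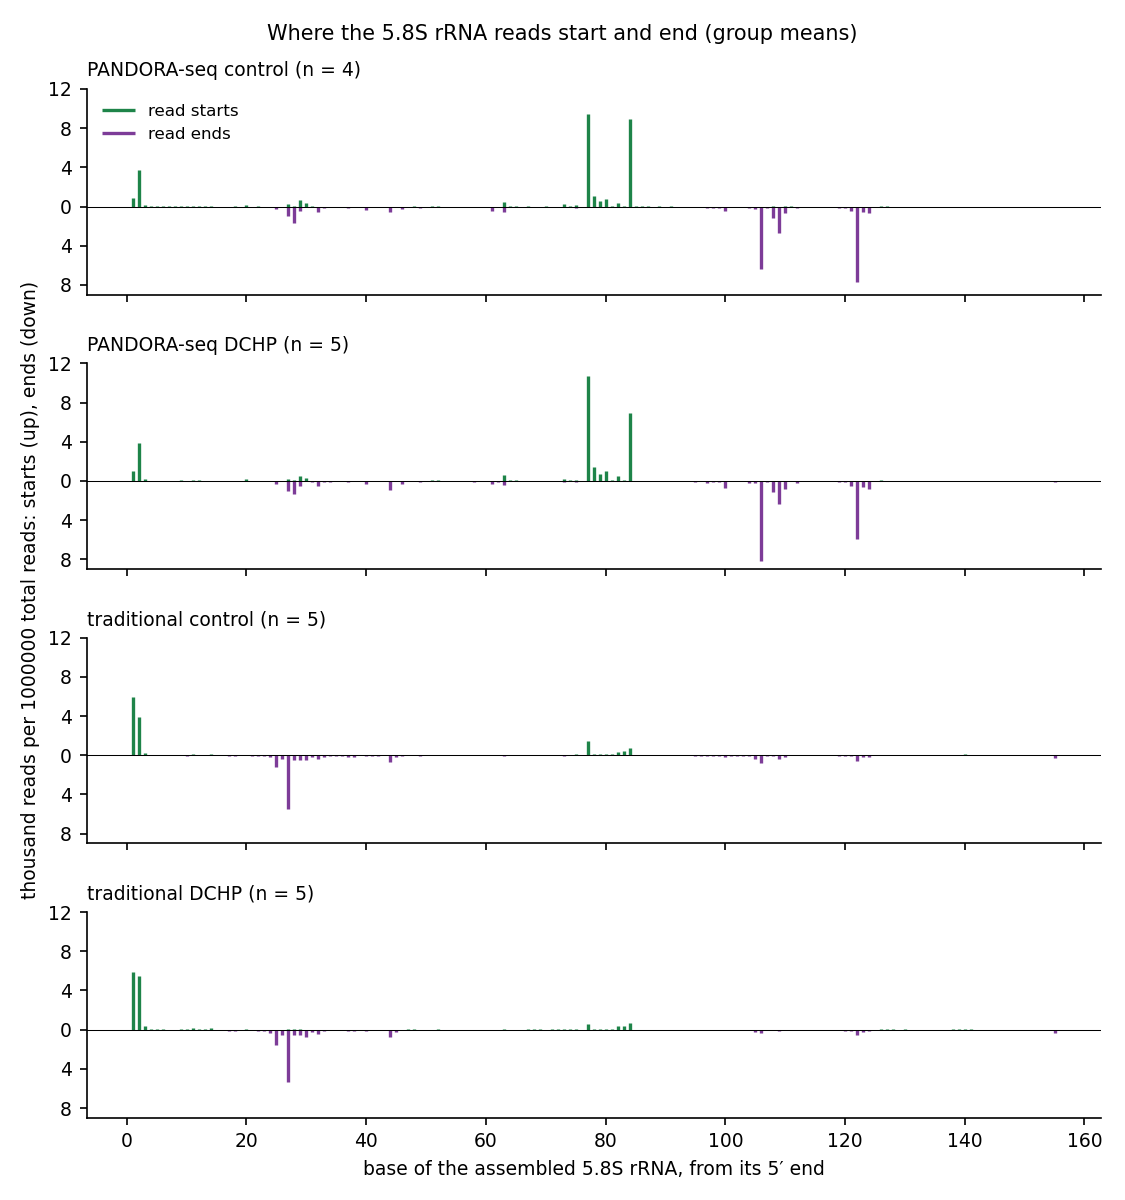
Mean number of reads per 1000000 total reads (axis in units of 1000) that start (upward lines) or end (downward lines) at each base of the assembled 5.8S rRNA, with 1 panel for each group. Starts at bases 77 and 84 and ends at bases 106 and 122 dominate in PANDORA-seq, and starts at bases 1 and 2 with an end at base 27 dominate in traditional libraries.

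At the 5′ end, starts at base 1, picked as the most used of traditional libraries, averaged 899 ± 118 reads per 1000000 in control PANDORA-seq (n = 4) and 5907 ± 1357 in control traditional libraries (n = 5), a ratio of 0.152, and the ratio was 0.166 in exposed sperm. Starts at base 2, the neighbouring base and among the most used of both methods, averaged 3718 ± 608 in PANDORA-seq against 3915 ± 682 in traditional libraries in control sperm. In exposed sperm they averaged 3838 ± 339 against 5448 ± 2498. Base 1 therefore opened 18.9% ± 2.7 and 19.3% ± 3.43 of 5′ reads in PANDORA-seq, and 58.2% ± 2.7 and 51.8% ± 8.57 in traditional libraries. In exposed traditional replicate 5, base 1 opened 36.6% and base 2 took 9787 reads per 1000000, against 3757 to 5336 in the other exposed traditional libraries.

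The most abundant 5′ sequences show the same shift at both of their ends. Capitals again mark bases that differ from n-R5-8s1, and the block of capitals at the start is why the gene finds none of them.
bases 1 to 27: CGACTCttAgcggTGgatcactcggct
bases 2 to 27: GACTCttAgcggTGgatcactcggct
bases 2 to 28: GACTCttAgcggTGgatcactcggctc
The sequence from base 1 to 27 averaged 3718 ± 1191 and 3395 ± 319 reads per 1000000 in control and DCHP traditional libraries, and 261 ± 105 and 321 ± 88.6 in PANDORA-seq. The 3 sequences were picked for their mean level over the 4 groups, so their differences between methods are described without a test. The sequence from base 1 to 27 was lower in PANDORA-seq, with log2 differences of -3.83 in control and -3.4 in exposed sperm (edgeR estimates). The sequence from base 2 to 27 was lower too, with log2 differences of -1.14 and -1.52. The sequence that ends 1 base later, at base 28, was higher in PANDORA-seq by 2.04 and 1.61 (log2), at 1114 ± 191 and 912 ± 215 reads per 1000000 against 271 ± 37.7 and 299 ± 58.2.

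The 3 most abundant internal fragments begin at base 77 or base 84, and 2 of them share their start and most of their bases.
bases 84 to 122: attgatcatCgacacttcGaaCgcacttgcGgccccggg
bases 77 to 106: aggacacattgatcatCgacacttcGaaCg
bases 77 to 109: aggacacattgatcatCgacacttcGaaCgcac
The 39-nt sequence from base 84 to 122 averaged 6528 ± 4234 and 4696 ± 2789 reads per 1000000 in control and exposed PANDORA-seq, against 233 ± 59.6 and 250 ± 136 in traditional libraries. It was higher in PANDORA-seq by 4.81 (log2) in control and 4.23 in exposed sperm (edgeR estimates). These 3 sequences too were picked for their mean level over the 4 groups, so their differences between methods are described without a test. The 30-nt sequence from base 77 to 106 averaged 4192 ± 1917 and 5153 ± 2705, against 450 ± 325 and 173 ± 108 (log2 3.22 and 4.9). The 33-nt sequence was higher by 3.45 and 5.07. All 3 contain several capitals and so lie outside what n-R5-8s1 can match, although the 24-nt sequence printed for the gene is the first part of the 2 that start at base 77.

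Starts at base 77 and at base 84 traded places between PANDORA-seq libraries. Starts at base 77 numbered 6920, 13504, 9739 and 7786 per 1000000 in control and 16252, 6495, 13738, 12346 and 4936 in exposed PANDORA-seq libraries. Starts at base 84 numbered 12509, 3506, 5278 and 14331 in control and 6437, 5483, 2990, 7654 and 12148 in exposed libraries. Base 77 thus took between 35.2% and 79.4% of the reads that start at either base in controls and between 28.9% and 82.1% in exposed libraries. No comparison of this split by method or exposure passed the test (adjusted p between 0.235 and 0.847, exact permutation test). Starts at the 2 bases together, which were picked as the most used of PANDORA-seq, were 8.34 and 13.7 times those of traditional libraries, a description without a test.

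The level of n-R5-8s1 can be split by these starts. Base 77 opened 85.9% of the gene's reads in PANDORA-seq. The number of such starts and the share collected from them therefore make up most of the gene's level by construction. The gene collects only the shorter reads from base 77, and these were 7.78%, 7.92%, 11.1% and 8.74% of the base 77 starts in control PANDORA-seq and 13.3%, 4.76%, 14.3%, 6.82% and 5.1% in exposed PANDORA-seq. Exposed replicates 1 and 3, the highest on n-R5-8s1, had both the most base 77 starts and the largest collected share, and exposed replicates 2 and 5, the lowest, had the fewest starts and the smallest share. Exposed replicate 4, at 1004 on the gene, had many base 77 starts but a collected share of only 6.82%. Reads of up to 25 nt made up 17.1%, 14.4%, 20.3%, 18.2% and 13.2% of all reads in these 5 libraries, so the 2 lowest on the gene were also the poorest in short RNA as a whole. In control PANDORA-seq that share was between 16.9% and 19.6%. The part of the library-wide length distribution in the spread of n-R5-8s1 was not tested. In traditional libraries the gene collected between 11.4% and 24.3% of the base 77 starts.

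The reads of 5.8S rRNA were longer in PANDORA-seq, and so were reads as a whole. All reads averaged 32.4 and 33.1 nt in control and exposed PANDORA-seq libraries, against 29.4 and 29.6 nt in traditional libraries. Reads that start at base 77 averaged 30.7 and 30.9 nt, against 29.4 nt in both traditional groups. Those from base 84 averaged 38.3 and 37.9 nt, against 34.7 and 34.8 nt. The part of the fragment classes in the length difference was not tested. The mean length of 5.8S reads was 33.6 ± 1.51 nt in control and 33.5 ± 1.76 nt in exposed PANDORA-seq libraries, against 28.8 ± 0.472 and 28.7 ± 0.857 nt in traditional libraries (adjusted p = 0.019 for both comparisons of methods, exact permutation test). The most common length of 5′ fragments was 27 nt in both methods, at 30.7% and 26.5% of 5′ reads in PANDORA-seq and 43.6% and 34.9% in traditional libraries. A second length of 43 nt held 11% and 16.6% of 5′ reads in control and exposed PANDORA-seq. The most common lengths of internal fragments in PANDORA-seq were 39 nt (29.2% and 21%) and 30 nt (19.9% and 23.9%). In control traditional libraries 30 nt (14%) and 39 nt (7.63%) also led. In exposed traditional libraries 39 nt led (10.1%), followed by 40 nt (7.82%) and 30 nt (7.35%). 3′ fragments had their most common length at 30 nt in PANDORA-seq (45.2% and 46.6%) and at 16 nt in traditional libraries (29.7% and 23.4%). Reads of up to 25 nt were 6.24% ± 1.88 and 7.38% ± 3.94 of 5.8S reads in PANDORA-seq and 21.6% ± 5.89 and 24.8% ± 6.57 in traditional libraries (adjusted p = 0.0238 for both comparisons of methods, exact permutation test). All deposited reads end at 45 nt, so longer fragments were not seen.

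**Figure D4:**
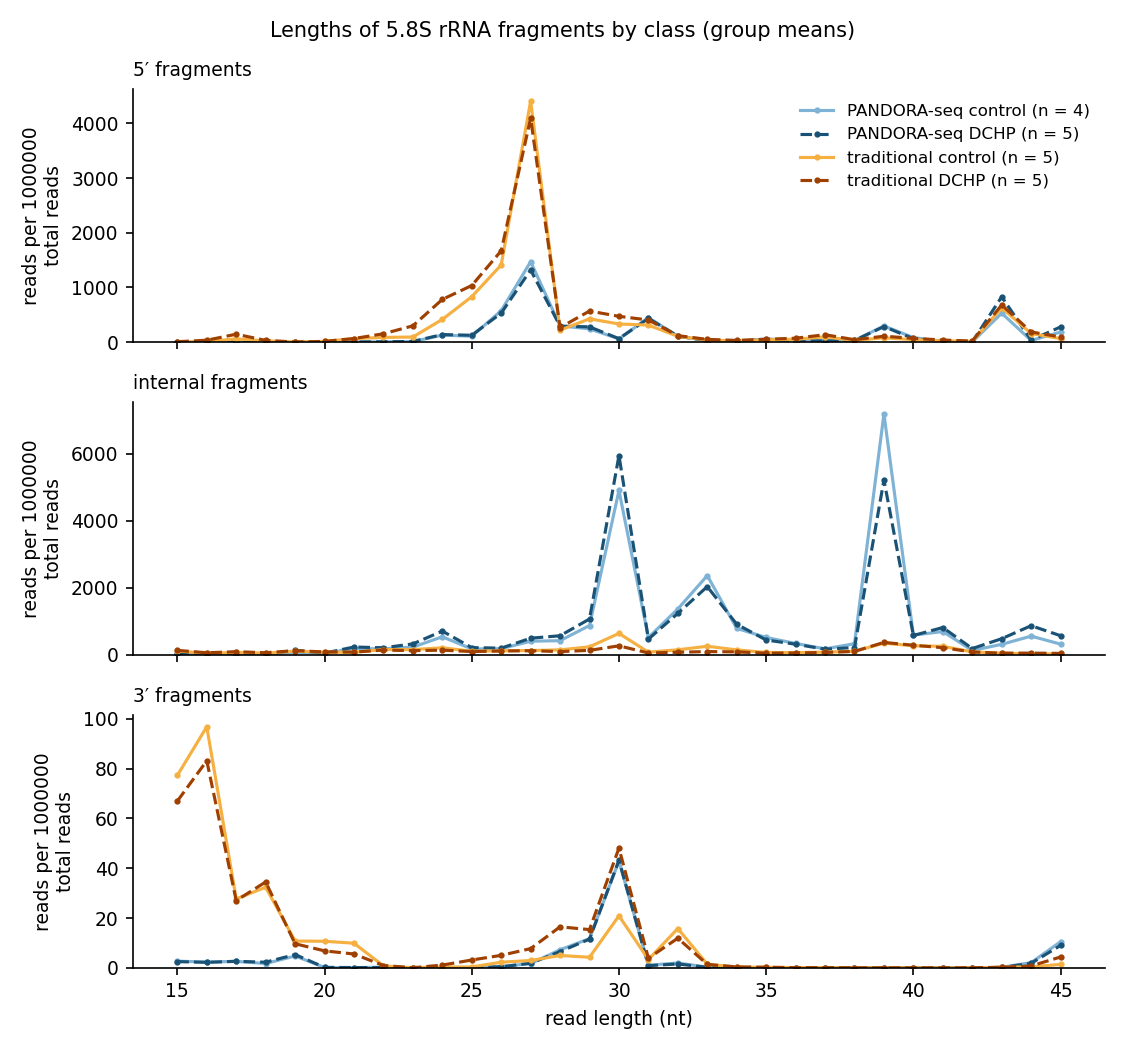
Mean reads per 1000000 total reads at each read length, for 5′, internal and 3′ fragments of the assembled 5.8S rRNA in the 4 groups. 5′ fragments peak at 27 nt in both methods with a smaller peak at 43 nt. Internal fragments peak at 30 and 39 nt in PANDORA-seq and, at lower levels, in traditional libraries. 3′ fragments peak at 16 nt in traditional libraries only.

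The 3′ sequences differ in length between methods and share the final base, 155.
bases 140 to 155: cctgTctgagcgTCgC
bases 126 to 155: CtcccGgggctacGcctgTctgagcgTCgC
bases 141 to 155: ctgTctgagcgTCgC
They too were picked for their mean level over the 4 groups, so their differences between methods are described without a test. The 16-nt sequence averaged 79.4 ± 46.7 and 68.8 ± 43.7 reads per 1000000 in control and exposed traditional libraries. In both PANDORA-seq groups it averaged 1.76 (log2 -5.49 and -5.29, edgeR estimates). The 15-nt sequence was lower in PANDORA-seq with log2 differences of -4.62 and -4.49. The 30-nt sequence from base 126 had log2 differences of 1.27 in control and 0.133 in exposed sperm. Such 15-nt and 16-nt reads are too short for a secure origin, and only their match to this molecule is stated.

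Sequence by sequence, edgeR called most of the 20000 most abundant sequences between methods, and 5.8S sequences are read against that. In control sperm 47.3% of all sequences tested were called higher in PANDORA-seq and 40.9% lower, and in exposed sperm 47.1% and 42.1% (adjusted p below 0.1 and fold above 2). Of 139 5′ sequences tested in control sperm, 16 were higher and 85 lower, and of 397 internal sequences 266 were higher and 73 lower. The median log2 difference was -1.76 for 5′ and 2.09 for internal sequences, beside 0.691 for all sequences. Of 13 3′ sequences, 3 were higher and 8 lower. In exposed sperm 12 of 156 5′ sequences were higher and 102 lower, and 275 of 389 internal sequences were higher and 68 lower. Of the sequences of n-R5-8s1, 12 of 38 were higher and 15 lower in control sperm and 17 of 40 and 15 of 40 in exposed sperm. The counts for n-R5-8s1 in the higher direction lay below the background in control sperm. TMM scaling moved the median of all sequences from 0.691 to 0.287, and the share of all sequences called to 44.4% higher and 42.9% lower. Under it 14 5′ sequences were higher and 97 lower and 239 internal sequences were higher and 84 lower. With DESeq2's size factors the median was -0.425, and 40.2% of the 19513 sequences given a p were called higher and 45.6% lower. There 2 5′ sequences were higher and 110 lower, 199 internal sequences higher and 95 lower, and 3 sequences of n-R5-8s1 higher and 18 lower, all in control sperm.

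Between DCHP and control libraries edgeR called no sequence of 5.8S rRNA, and none of the 20000 sequences tested in either method (0% in both directions). In PANDORA-seq 9 of 635 sequences of the assembled molecule had an unadjusted p under 0.05, as had 1036 of all 20000, and in traditional libraries 48 of 577, as had 1475 of all. DESeq2 called 1 sequence of the assembled molecule lower in PANDORA-seq and 4 lower in traditional libraries, beside 71 (0.356%) of all sequences higher and 17 (0.0851%) lower in PANDORA-seq and 16 (0.0822%) higher and 117 (0.601%) lower in traditional libraries. Of the 28 sequences of n-R5-8s1 tested in PANDORA-seq and 52 in traditional libraries, none was called. At single bases, the exposure comparison nearest to the threshold in PANDORA-seq was the end at base 44, with 587 ± 177 reads per 1000000 in control (n = 4) and 916 ± 233 in exposed libraries (n = 5), a 1.56-fold difference (adjusted p = 0.123, exact permutation test). In traditional libraries it was the end at base 109, with 335 ± 216 in control and 141 ± 60.9 in exposed libraries, a ratio of 0.422 (adjusted p = 0.112, exact permutation test, n = 5 each).

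Between 7.59% and 8.72% of reads on the assembled molecule carried a mismatch in PANDORA-seq libraries, and between 9.74% and 14.6% in traditional libraries. The most frequent at a single base was A41G in PANDORA-seq, in 0.444% of the reads that cover base 41, and A148G in traditional libraries, in 0.876% of the reads over base 148. Positions here count from the 5′ end of the assembled molecule, with its base first and the read's base last. Reads of the opposite strand numbered between 0 and 36 in each library.

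Among the 1357 small RNA genes of the annotation with at least 1 read per 1000000, the levels most like that of n-R5-8s1 over the 19 libraries were those of Gm26377 (Spearman's rho 0.874), Mir703 (0.854) and the small nucleolar RNA Snord37 (0.826), followed by Gm22338 and Gm23927 (0.812 and 0.804). For the assembled molecule Snord42a came first (0.891). These values describe levels per total read in libraries of 2 methods, and share the library and its depth.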

How the data were processed

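Small RNA of sperm was sequenced by PANDORA-seq in 4 control and 5 DCHP libraries and by a traditional method in 5 and 5. The authors deposited, for each library, a table of distinct cleaned sequences of 15 to 45 nt with their raw read counts, without alignment or normalization. Their own annotation with SPORTS1.1, and mm10, the build the submitters' processing notes name, bear on none of these values. The 19 libraries held 21588335 to 56506344 reads, and intervals and limits from them cover counting error only, as reads carry no molecular identifiers.

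Sequences were matched to n-R5-8s1 (GENCODE M21, GRCm38) in the sense direction without gaps and with at most 1 mismatch. The 5.8S rRNA was assembled by extending the most abundant read of n-R5-8s1 in both directions with overlaps of 14 bases. Its ends were set at the outermost base that opens (or closes) at least 10% of the reads that start (or end) in the outer 30 bases of the contig. Levels are reads per 1000000 total reads, and a ratio to 18S rRNA reads was also computed. Groups were compared with exact permutation tests (difference of group means, two-sided). For the assembled molecule, Benjamini-Hochberg adjustment ran over 16 comparisons of levels, 12 of composition and 4 of the 18S ratio. Further adjustments ran over 40 comparisons of positions, 16 of other rRNA genes and 36 of measures added after the data were seen. For n-R5-8s1, classes without reads gave no p and did not enter the adjustment. Its levels were adjusted over all and internal reads, which are the same values. Its composition was adjusted over mean length alone, and its 18S ratio over 4 comparisons. 4 libraries against 5, like 5 against 5, give no p below 0.00794. edgeR 4.0.16 (glmQLFit and glmQLFTest, total reads as library size) was run in R 4.3.3 on the 20000 most abundant sequences per comparison and tested on simulated data. Sequences were called at an adjusted p below 0.1 and a fold above 2, and DESeq2 1.42.0 was an alternative. Named sequences were the 3 most abundant per class by the mean of the 4 group means, and their differences between methods are given without a test. Named positions were the 3 most used starts and ends per method. Genes of like pattern were the 5 with the highest Spearman correlation, of which all are given for n-R5-8s1.

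The gene, the lists of marker microRNAs and the tests were chosen with earlier results of these data known. Control and DCHP libraries were paired by replicate number in neither method (correlations of deviations above 0.1 in 1 of 4 and 1 of 5 pairs), and PANDORA-seq and traditional libraries of control sperm in 2 of 4 pairs. In exposed sperm all 5 pairs of methods exceeded 0.1 (0.175 to 0.342), so the paired test is given beside those comparisons. Their main test has no block. No 2 libraries of a group were alike within counting noise (36 pairs, chi-square per degree of freedom of at least 102). The sequence of n-R5-8s1 itself is not reported here, and the alternative with flanking genomic bases was not run.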

Additional observations from a re-analysis of the deposited data

Results flagged for a closer look

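Of 44 groups of 4 or 5 libraries examined for a library far from the others, 2 had one. Chance alone gives about 1 in 20. Traditional DCHP replicate 4 had the shortest mean length of n-R5-8s1 reads, 19.4 nt, against 20.1 to 20.3 nt in the other 4 libraries of its group, and its gap to the nearest library was 0.73 of the group's range. Traditional control replicate 5 had the highest level of 5′ fragments of the assembled 5.8S rRNA, 13481 reads per 1000000 total reads, against 8605 to 9775 in the other 4, with a gap of 0.76 of the range.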

How the results depend on the processing

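Leaving out sequences that match another small RNA gene changed no direction and no call. Fitting all 4 groups together in edgeR moved no count of called sequences by over 1.5 times. With exact matches only, the ratio between methods for n-R5-8s1 turned to 0.602 in control and 0.684 in exposed sperm, and the exposure ratio in traditional libraries to 1.23 (1.4 per 18S read). The length differences, which such short matches cannot decide, were 0.0447, 0.213 and -0.431 nt without a call. With reads of at least 18 nt, the length differences were 0.584 and -0.428 nt without a call and 0.00477 nt for exposure in PANDORA-seq, the exposed 18S ratio (0.561) lost its call, and 3′ fragments in exposed sperm lost their call (ratio 0.481, share -0.913 percentage points). On log2 values and with 5 end bases, the exposure ratio of 3′ fragments in PANDORA-seq turned to 1.09 and 1.02. With the end base alone, the exposure values in traditional libraries turned to 0.993 (5′), 1.09 (internal), -1.55 and -0.00302 (shares of 5′ and 3′ fragments). Per microRNA hairpin read, n-R5-8s1 in exposed sperm was 44-fold higher in PANDORA-seq, 5′ fragments 4.53-fold and 5.48-fold and 3′ fragments 3.16-fold and 2.83-fold higher, and the exposure ratios turned to 0.946 (traditional, all) and 1.21 (PANDORA-seq, 3′). Per hairpin read of 20 to 24 nt these were 321 for n-R5-8s1, 41 and 37.3 for 5′, and 33.3 and 18.9 for 3′ fragments, and exposure ratios turned to 0.932 and 0.945 for all reads, 0.93 for 5′ and 0.935 for internal fragments. With the assembled molecule in place of the gene, an alternative chosen after seeing the data, exposed sperm gained calls between methods (1.85 and 6.72 for internal), while the exposure values in traditional libraries turned to 1.05 and 1.21 or lost their call (-0.0971 nt). For sequence counts, TMM called 7 and DESeq2 3 of 38 sequences of n-R5-8s1 higher in control sperm, beside 44.4% and 40.2% of all sequences. With 40000 sequences in place of 20000, 41 of 80 and 39 of 83 were lower in control and exposed sperm, where 38 and 40 had been tested before. Of the assembled molecule 509 of 1190 and 536 of 1206 were higher and 404 and 430 lower, beside 44.1% and 43.9% of all sequences higher and 42.5% and 44.5% lower. DESeq2 called 1 and 4 sequences lower with exposure. The causes were not tested.

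With the replicate number as a block, no permutation call could be kept, since 4 pairs give no p below 0.125 and 5 pairs none below 0.0625. The paired ratios for n-R5-8s1 were 2.03 in control sperm, and 0.321 and 0.428 per 18S read, with length differences of 1.35, 2.06 and -0.735 nt. For the assembled molecule they were 1.99 and 1.85 (all), 0.517 and 0.425 (5′), 5.04 and 6.72 (internal), 0.262 (3′, exposed) and 0.324 and 0.239 per 18S read. Paired differences were -45.5 and -53.5 points for the 5′ share, -1.96 points (exposed) and, for exposure in PANDORA-seq, -0.0238 points for the 3′ share, and 4.8 and 4.75 nt for length. The block in edgeR left 297 of 604 sequences of the assembled molecule higher and 202 lower in exposed sperm and 293 of 595 higher and 188 lower in control sperm, beside 48% and 41.9% and 47.7% and 40.6% of all sequences, and moved no count for either reference by over 1.5 times.

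Leaving out each library in turn gave the following ranges. For n-R5-8s1 the ratios between methods were 2 to 2.43 and 2.65 to 4, those per 18S read 0.31 to 0.339, 0.33 to 0.497 and, for exposure in traditional libraries, 0.935 to 1.06, and the length difference with exposure -0.858 to -0.535 nt. The count of its sequences called lower in control sperm was 9 to 16, and 9 without traditional control replicate 1. For the assembled molecule in control sperm the ratios were 1.82 to 2.04 (all), 0.455 to 0.517 (5′), 4.94 to 5.65 (internal) and 0.257 to 0.324 (per 18S read), the 5′ share differed by -49.8 to -45.5 points and length by 4.25 to 5.25 nt, and in exposed sperm 3′ fragments had a ratio of 0.228 to 0.387 and a share difference of -2.3 to -1.11 points. Exposure values, none called, crossed their null in PANDORA-seq for all reads (0.957 to 1.07), 5′ (0.979 to 1.08), internal (0.945 to 1.08) and 3′ fragments (0.822 to 1.37), shares (-0.636 to 2.17 and -0.0426 to 0.0966 points), length (-0.637 to 0.514 nt) and the 18S ratio (0.953 to 1.13). In traditional libraries they did so for all reads (0.98 to 1.09), 3′ fragments (0.736 to 1.47, share -0.775 to 0.769 points) and length (-0.274 to 0.184 nt), and the difference in exposure effect between methods ran from -0.137 to 0.0506. With 4 or 5 libraries a group, only differences past the spread of nearly every library could be called.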

Other observations

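Reads that run past the last base set for the assembled 5.8S rRNA averaged 12.1 ± 5.56 per 1000000 total reads in control PANDORA-seq (n = 4) and 9.92 ± 3.16 in exposed PANDORA-seq (n = 5), against 32.1 ± 18.9 and 32.2 ± 19.7 in traditional libraries (n = 5 each). The difference between methods passed in exposed sperm (adjusted p = 0.0238) and not in control sperm (adjusted p = 0.143, exact permutation tests). Reads of 35 to 45 nt, the longest deposited, made up 55.2%, 24.2%, 30.9% and 53% of 5.8S reads in control PANDORA-seq and 31.4%, 45.4%, 19.3%, 37.7% and 60.7% in exposed PANDORA-seq, whereas traditional libraries ranged only from 14.1% to 23.6%.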
